A study of Schmidtea mediterranea with 8 samples.

Results

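The transcripts described here are the 150 of the planarian *Schmidtea mediterranea* that were most concentrated in X1 cells, the sorted fraction that holds the dividing stem cells. They were chosen from a table of 17882 transcripts by their values in these same libraries. Among the 4673 transcripts with a mean of at least 20 RPKM (reads scaled for transcript length and library size) in X1, those with the highest ratio of (X1 mean + 1) to (Xins mean + 1) were taken, after Piwi-like 1, PCNA, MCM7 and histone H2A.J had been set aside. Polyadenylated RNA was sequenced from 4 libraries of X1 cells and 4 libraries of Xins cells. Both fractions came from adult animals of the asexual CIW4 strain with no treatment or transgene, and were separated by flow cytometry after Hoechst staining of DNA. X1 cells carry more DNA than resting cells, while Xins is a mixture of mostly post-mitotic cell types named for its insensitivity to irradiation. The labels number the libraries of each fraction but do not say whether they came from separate animals or sorts, so the spread between them may be partly technical.

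Neoblasts are the dividing cells of the planarian body. They include the stem cells from which all other cell types are replaced, and they leave the cell cycle when they begin to differentiate. To divide, a cell loads the MCM helicase onto replication origins, copies its DNA with polymerases fed by newly made nucleotides, repairs damage met on the way, and separates the copies under the control of cyclin-dependent and Aurora kinases. Planarian neoblasts are also known for RNA-binding proteins of the kind found in the germ cells of other animals. Because the X1 gate selects cells by DNA content, a transcript of cycling cells and a transcript of stem cells as such cannot be told apart in these libraries. Fewer cells of a type and less RNA per cell likewise cannot be told apart in bulk samples.

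Each library held between 14323705 and 15523242 reads, as recovered from the deposited values. The 4 transcripts set aside by the rule served as neoblast markers, and each was far higher in X1. Piwi-like 1 ranged from 1925 to 2260.5 RPKM in X1 and from 38.3 to 86.9 RPKM in Xins, and PCNA from 602 to 842 RPKM and from 13.4 to 39.3 RPKM. The 11 markers of the epidermal progeny went the other way, with a summed level of 21.0 to 66.0 RPKM in the X1 libraries against 3408 to 5349.8 RPKM in Xins. Of these, *zpuf-2* had no read in any X1 library, and *AGAT-1* ranged from 1.89 to 5.78 RPKM there. Of the 7 gut-pattern transcripts, *zfp-2* and *nkx-2.2* were higher in X1 and the other 5 higher in Xins (limma, adjusted p under 0.05). Of all 15563 tested transcripts, 35.5% were higher in X1 and 41.7% in Xins. The libraries of *nkx-2.2* overlapped, at 5.96 to 11.1 RPKM in X1 and 1.99 to 8.81 RPKM in Xins (limma, adjusted p = 0.020). The summed levels of the 7, 77.1 to 99.3 RPKM in X1 and 70.3 to 98.5 RPKM in Xins, were mostly *zfp-2* in X1, at 59.1 to 78.0 RPKM. What part these marker levels have in the results below was not tested.

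The 150 transcripts had X1 means from 20.4 to 2402 RPKM, with a median of 60.2 RPKM. Their Xins means ran from 0.238 to 80.4 RPKM, with a median of 1.99 RPKM. In 35 of them the Xins mean was below 1 RPKM, in 100 it lay from 1 to 10 RPKM, and in 15 it was 10 RPKM or more. The X1 mean exceeded the Xins mean by 12.6-fold to 131-fold, with a median of 28.5-fold. These differences chose the transcripts and are given without a test. In all 150 every X1 library was above every Xins library, as was the case for 32.5% of the 15563 transcripts tested and 64.6% of those with an X1 mean of at least 20 RPKM. All 150 passed the filter on low values, a mean of at least 1 RPKM over the 8 libraries. Their median difference was 4.16 on the log2(RPKM + 1) scale, against a median of -0.11 over all tested transcripts.

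**Figure D1:**
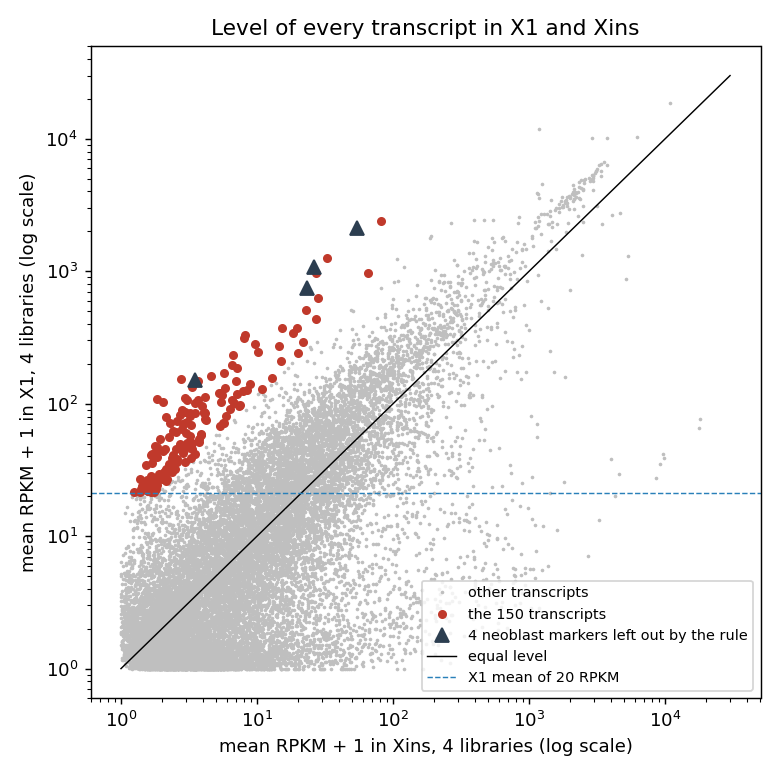
Mean level of each of 17882 transcripts in X1 (vertical axis) and Xins (horizontal axis) over 4 libraries each, as RPKM + 1 on log scales. The 150 transcripts (red) lie along the upper edge of the cloud with Xins means from 0.238 to 80.4 RPKM, beside the 4 neoblast markers left out by the rule (triangles).

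The limit at 150 fell within a continuous series of ratios. The last transcripts inside it were SMED30016537, with a ratio of 11.98, and SMED30009032, with 11.9. SMED30008015, whose protein hit is a mitochondrial thiamine pyrophosphate carrier, was the first outside with a ratio of 11.8, and SMED30011277 followed with 11.7. When each library was left out in turn and the rule applied again, 142 to 148 of the 150 were chosen again. The median fold of the library left out, against a fraction whose values still chose the transcripts, was lowest for Xins 3, at 19.2-fold, and highest for Xins 1, at 41.7-fold.

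Protein hits are known here only for transcripts listed in tables of the p53 and CHD4 RNAi experiments that accompanied the sorted cells. A hit was available for 76 of the 150. Another 31 were listed without a hit, and 43 were in none of those tables. Of the 76 with a hit, 59 fell into a functional list (DNA replication, cell cycle, repair and so on), and the other 17 had a variety of hits. The roles given below are those of the named protein in other organisms.

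Proteins that license replication origins contributed 9 of the 150. MCM4A (SMED30023821), a subunit of the MCM helicase that unwinds DNA, measured 142, 147, 167 and 135 RPKM in X1 replicates 1 to 4 and 1.20, 2.45, 3.85 and 3.23 RPKM in Xins. MCM3 (SMED30026560), another subunit, measured 118, 124, 163 and 125 RPKM in X1 and 1.63, 2.40, 2.88 and 2.35 RPKM in Xins. No Xins library of either transcript came near the lowest X1 library, and X1 replicate 3 was the highest for both. The X1 to Xins fold was 55.1 for MCM4A and 57.2 for MCM3, or 5.39 ± 0.22 and 5.33 ± 0.16 (SE) on the log2(RPKM + 1) scale. MCM5A (SMED30032563) averaged 160.3 ± 10.9 RPKM in X1 and 3.55 ± 1.85 RPKM in Xins (SD, n = 4), and MCM2 (SMED30006979) 88.5 ± 9.22 and 1.79 ± 0.842 RPKM. The subunit MCM6 (SMED30033600) kept the most in Xins of this group, at 13.96 RPKM beside 209 RPKM in X1, a 14.98-fold difference. The origin recognition subunits ORC3 and ORC4, the loading factor CDT1 (SMED30018579) and MCM10 were the remaining members. MCM7, set aside by the rule, ranged from 126 to 183 RPKM in X1 and from 1.41 to 3.00 RPKM in Xins, within the span of its partner subunits.

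The replication fork supplied 10. The primase subunits PRI1 (SMED30010424) and PRI2 (SMED30036024), which lay down the primers that polymerases extend, stood close to each other in level. PRI1 measured 74.7, 87.6, 75.3 and 89.4 RPKM in X1 and 0.398, 1.57, 2.62 and 2.27 RPKM in Xins. PRI2 measured 74.2, 70.7, 65.1 and 67.3 RPKM in X1 and 1.90, 1.73, 2.85 and 0.963 RPKM in Xins. The fractions were far apart for both, and the highest X1 library of PRI2 lay just under the lowest of PRI1. WDHD1 (SMED30018395), which couples the helicase to polymerase alpha, averaged 60.7 ± 13.5 RPKM in X1 and 1.40 ± 0.612 RPKM in Xins. TIPIN (SMED30019555), a fork protection factor, averaged 68.4 ± 14.3 and 2.30 ± 0.997 RPKM. Claspin, the polymerase subunits DPOD1 and DPOA2, the helicase cofactors CDC45 and PSF3, and the clamp loader subunit RFC2 made up the rest, with folds from 15.1 for DPOA2 to 55.9 for DPOD1.

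Enzymes that make DNA precursors were among the most abundant of the 150. The large subunit of ribonucleotide reductase, RIR1 (SMED30029973), which turns ribonucleotides into deoxyribonucleotides, measured 506, 521, 567 and 443 RPKM in X1 and 17.8, 21.8, 25.2 and 23.1 RPKM in Xins. Its small subunit RIR2 (SMED30010115) measured 358, 458, 428 and 492 RPKM in X1 and 18.8, 28.2, 34.4 and 22.6 RPKM in Xins. The lowest X1 library of either subunit was far above its highest Xins library. DUT (SMED30029980), which removes dUTP so that uracil is not built into DNA, averaged 370.2 ± 60.8 RPKM in X1 and 14.4 ± 6.77 RPKM in Xins. DCTD (SMED30009032), a deaminase on the route to thymidylate, averaged 128 ± 10.4 and 9.86 ± 2.75 RPKM and was the last of the 150 by ratio. Dihydrofolate reductase (DYR, SMED30007059), which serves thymidylate synthesis, was also among the 150 with 105 RPKM in X1 and 5.60 RPKM in Xins.

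The cell cycle engine gave 11. CDK1 (SMED30032688), the kinase that drives entry into mitosis, measured 105, 105, 111 and 114 RPKM in X1, one of the tighter sets, and 1.53, 2.87, 2.76 and 0.719 RPKM in Xins. Its partner cyclin B2 (CCNB2, SMED30005246) measured 166, 197, 185 and 226 RPKM in X1 and 2.92, 4.50, 10.7 and 4.31 RPKM in Xins. Their folds were 55.1 and 34.6, and the highest Xins library of cyclin B2, replicate 3, was still far below its lowest X1 library. CKS2 (SMED30015678), a small subunit of the kinase complex, averaged 186 ± 33.0 RPKM in X1 and 6.12 ± 2.66 RPKM in Xins. CDC16 (SMED30014572), part of the complex that marks cyclins for destruction, averaged 40.1 ± 4.75 and 0.671 ± 0.446 RPKM. The mitotic kinases PLK1, AURK and AUKBB had X1 means of 246, 118 and 129.5 RPKM with folds of 26.7, 28.0 and 26.9. A further cyclin B (CCNB), CDC20, WEE2 and a CDK1-like hit (CDK1A) completed the group.

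Of the spindle and cytokinesis list, 4 were among the 150. ERC6L (SMED30016227), a helicase that acts on the threads between separating chromosomes, averaged 33.4 ± 5.67 RPKM in X1 and 0.538 ± 0.371 RPKM in Xins, with a fold of 62.1. KIF23 (SMED30004988), a kinesin of the central spindle, measured 47.6, 50.4, 49.2 and 47.6 RPKM in X1 and 1.27, 1.62, 2.90 and 1.01 RPKM in Xins. Its partner in the central spindle, PRC1 (SMED30016181), measured 55.4, 57.2, 57.1 and 59.6 RPKM in X1 and 3.34, 2.16, 2.96 and 3.02 RPKM in Xins. Both were steady across the X1 libraries, with coefficients of variation of 2.82% and 3.06%, against a median of 12.2% over the 150. Separin (ESPL1, SMED30013237), the protease that cuts cohesin so that sister chromatids part, averaged 58.6 ± 7.28 RPKM in X1 and 2.86 ± 1.04 RPKM in Xins.

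DNA repair and checkpoint proteins were the largest of the functional lists among the 150, with 12. CHK1 (SMED30011043), the kinase of the replication checkpoint, averaged 80.1 ± 8.23 RPKM in X1 and 2.19 ± 0.831 RPKM in Xins. The end-processing factors nibrin (NBN, SMED30019275) and EXO1 (SMED30025421) averaged 40.4 ± 4.15 and 43.7 ± 1.17 RPKM in X1. In Xins the same pair averaged 0.686 ± 0.397 and 0.844 ± 0.494 RPKM, with folds of 59.0 and 51.8. RAD17, a checkpoint clamp loader, had the highest fold of the 12, at 67.0, with 26.2 RPKM in X1. RNF8, APEX1, RA54B, RAD50, PMS1, MSH6 and HELQ followed, with folds from 22.0 for PMS1 to 51.0 for RA54B.

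Chromatin and nuclear structure were represented by 5. The histone variant H2A.Z (H2AZ, SMED30030543), which marks the start of many genes, measured 774, 1055, 895 and 1132 RPKM in X1 and 15.7, 25.8, 44.8 and 19.1 RPKM in Xins. Lamin C (LAMC, SMED30010297), a filament protein that lines the nucleus, measured 369.6, 328, 326 and 287 RPKM in X1 and 4.83, 6.67, 11.6 and 5.32 RPKM in Xins. Neither pair of groups overlapped, and lamin C had the highest ratio of any of the 150 with a protein hit. CAF1 (SMED30000072), a histone-binding subunit of several chromatin complexes, averaged 111 ± 12.4 RPKM in X1 and 3.17 ± 1.67 RPKM in Xins. The methyltransferase NSD2 (SMED30009651) averaged 46.7 ± 4.90 and 2.10 ± 0.685 RPKM. SLBP1 (SMED30026247), which binds the hairpin at the end of replication-dependent histone mRNAs, averaged 79.1 ± 5.29 and 4.95 ± 2.85 RPKM. Reads of histone and tubulin families could be split among near-identical copies, so the levels of H2AZ and of TBA2, below, are less certain than the others.

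**Figure D2:**
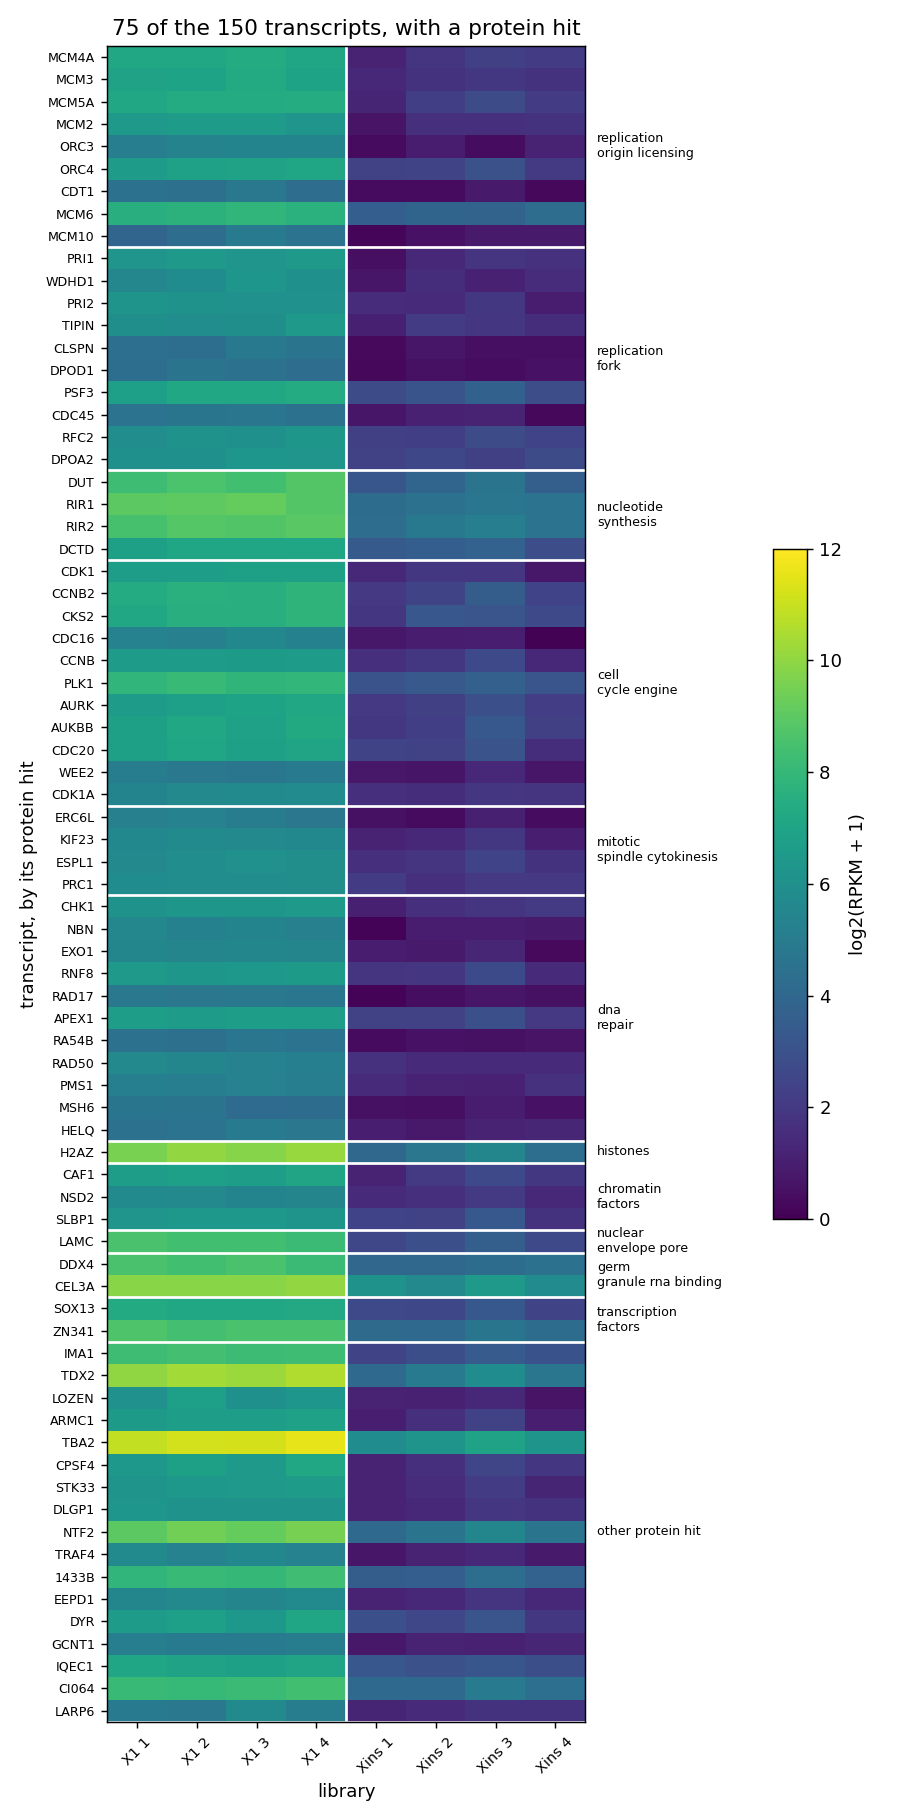
Level, as log2(RPKM + 1), in each of the 4 X1 and 4 Xins libraries (columns) of 75 transcripts with a protein hit (rows, grouped by functional list). All rows are higher in the X1 columns, and TBA2 is the highest in X1 with a mean of 2402 RPKM.

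RNA-binding proteins of the germ granule type were represented by CEL3A and DDX4. CEL3A (SMED30023062), a CELF family RNA-binding protein, measured 947, 923, 946 and 1047 RPKM in X1 and 68.5, 48.6, 85.2 and 53.7 RPKM in Xins. DDX4 (SMED30031463), an RNA helicase related to vasa, measured 371, 333, 377 and 287 RPKM in X1 and 14.6, 15.6, 17.8 and 21.4 RPKM in Xins. Both kept more in Xins than most of the 150, at 6.63% and 5.08% of the X1 mean against a median of 3.504%. Piwi-like 1, from the same list but set aside, kept 2.53%.

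The transcription factor list gave SOX13 (SMED30019097) and the zinc finger protein ZN341 (SMED30023708). SOX13 measured 163, 139, 141 and 151 RPKM in X1 and 5.21, 5.15, 8.87 and 4.56 RPKM in Xins. ZN341 measured 414, 340.2, 372 and 371 RPKM in X1 and 16.7, 16.4, 24.1 and 17.8 RPKM in Xins. The groups did not overlap for either, with folds of 24.96 and 19.96. A hit to the runt-family factor lozenge (LOZEN, SMED30022580), outside that list, reached 78.8 RPKM in X1 and 1.13 RPKM in Xins, and its 69.5-fold difference was the highest fold of any of the 150 with a hit.

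The most abundant of the 150 was an alpha-tubulin, TBA2 (SMED30031235), a building block of microtubules. It measured 1929, 2289, 2426 and 2963 RPKM in X1 and 56.3, 73.4, 120.1 and 71.9 RPKM in Xins. Next came the thioredoxin peroxidase TDX2 (SMED30030295), which breaks down peroxides, with 1014, 1304, 1161 and 1543 RPKM in X1 and 15.9, 31.0, 55.4 and 25.4 RPKM in Xins. In both, X1 replicate 4 was the highest and X1 replicate 1 the lowest, and Xins replicate 3 was the highest of its fraction. NTF2 (SMED30021074) carries the GTPase Ran into the nucleus, and averaged 625 ± 107 RPKM in X1 and 27.0 ± 12.4 RPKM in Xins. Importin alpha (IMA1), which carries proteins into the nucleus, averaged 315 RPKM in X1 and 7.08 RPKM in Xins. Hits outside the lists also included ARMC1, CPSF4, STK33, DLGP1, EEPD1, CI064 and LARP6, with folds from 13.9 for CI064 to 50.9 for ARMC1.

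The 3 transcripts with the highest ratios had no protein hit and were in none of the tables. SMED30012024 measured 80.1, 94.6, 106 and 152 RPKM in X1 and 0.151, 0.951, 1.59 and 0.612 RPKM in Xins, and its 131-fold difference was the highest of the 150. SMED30002872 followed by fold, at 98.8, with 102 ± 12.5 RPKM in X1 and 1.03 ± 0.712 RPKM in Xins. SMED30000949 had an 87.2-fold difference. The Xins replicates of these 3 differed several-fold while staying far below X1, and replicate 3 was the highest for each. Their Xins levels rested on 21, 101 and 182 reads over the 4 libraries. The 43 transcripts in none of the tables had a median X1 mean of 40.9 RPKM and a median fold of 26.9. The 31 listed without a hit had a median X1 mean of 52.99 RPKM and a median fold of 33.6. These medians lay on either side of the 28.5-fold of all 150.

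Whole-mount in situ patterns were available for 8 of the 150, and 6 of the 8 carry the word neoblast. The 8 are part of a screen of 144 transcripts picked for being lowered after RNAi, of which 21 (14.6%) carry that word. CEL3A and ZN341 are noted there as neoblast and TRAF4 (SMED30025885) as neoblast and *prog-1* like. RNF8 (SMED30015687) is noted as very weak, neoblast like and in discrete cells. GCNT1 (SMED30026622) is noted as hazy and maybe neoblast like, a phosphoprotein-binding adaptor (SMED30031447) as a hazy mesenchymal pattern, and IQEC1 (SMED30002877) as discrete cells, some inside the pharynx. TRAF4, a signalling adaptor, measured 51.5, 39.3, 47.6 and 38.4 RPKM in X1 and 0.663, 1.32, 1.64 and 0.840 RPKM in Xins. It is named here by its protein hit, and the gut-pattern transcript that the study calls *traf-4* is a different one (SMED30033686). The transcripts without a neoblast note, SMED30031447 and IQEC1, kept 4.93% and 5.98% of their X1 mean in Xins, and those with one between 2.53% for TRAF4 and 6.63% for CEL3A. The primers below fix which stretch of each transcript the probe covered. They are shown for the clearest neoblast patterns and for TRAF4, the only one of the 8 noted for early progeny as well. Each is given 5′ to 3′ without the cloning tail.
CEL3A forward: aggctgtagacaaagacaactc
CEL3A reverse: aatccaactccatctccctgac
ZN341 forward: aaaatttgcgaataaacgaaaaattttg
ZN341 reverse: ctacgtccatggagtcagttgg
TRAF4 forward: atggctatgaaaagttacgttcc
TRAF4 reverse: catgtaattagctgatgattatttgctc

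Fold changes were not even across the functional lists, and the lists differed in how many of their transcripts reached the 150. The lists were put together mostly from transcripts lowered after p53 RNAi, so their counts are read beside that set. Of all 15563 transcripts tested, 77.2% differed between the fractions, 35.5% being higher in X1 and 41.7% higher in Xins (limma, adjusted p under 0.05). Under quantile normalization this balance turned, and the share of calls that were higher in X1 went from 45.9% to 57.2%. Of the 575 tested transcripts lowered after p53 RNAi only, 74.8% were higher in X1, and 22.8% in Xins. In origin licensing, 9 of 13 were among the 150, and the other 4, which include MCM7, passed the test as higher in X1. In the cell cycle engine the corresponding counts were 11 of 15 and 4, at the fork 10 of 21 and 11, and in repair 12 of 26 and 14. The 11 of the fork include PCNA, which like MCM7 was set aside by the rule whatever its ratio. In nucleotide synthesis 4 of 8 and in the spindle list 4 of 10 were among the 150, with 4 and 6 others higher in X1. Medians on the log2(RPKM + 1) scale were 4.55 for the cell cycle engine, 4.42 for licensing, 3.67 for the fork, 3.54 for repair, 3.54 for nucleotide synthesis and 3.49 for the spindle list. These medians cover all tested transcripts of a list, including those the rule chose by this same difference. They are therefore given as description only.

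Several transcripts of these lists were outside the 150 at X1 means below 20 RPKM, although their folds were high. CDC6 (SMED30002348), which loads the MCM helicase, averaged 19.8 RPKM in X1 against 0.542 RPKM in Xins, and so was 36.5-fold higher. The second CDT1 transcript (SMED30014686) averaged 17.7 and 0.915 RPKM, or 19.4-fold. ASPM (SMED30006065), a spindle pole protein, was 35.1-fold higher in X1 at only 3.08 RPKM, and CKAP5 (SMED30004043), a microtubule polymerase, 21.3-fold higher at 5.23 RPKM. In the 6 lists of replication, division and repair, 20 of the 43 tested transcripts outside the 150 had X1 means below 20 RPKM, and 2 were those set aside by the rule. Others in the same lists were far less concentrated. The phosphatase MPIP (SMED30035864), the CDC25 type activator of CDK1, measured 38.3, 43.2, 44.9 and 54.4 RPKM in X1 and 24.3, 20.2, 31.7 and 26.4 RPKM in Xins. Its groups did not overlap, and it differed by 0.80 ± 0.16 on the log2(RPKM + 1) scale (limma, adjusted p = 6.88e-04). CIZ1 (SMED30005738), a replication-associated zinc finger protein, had a log2 difference of 0.78 ± 0.18 (adjusted p = 0.0015).

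Lists of general nuclear and cytoplasmic growth functions put few or none of their transcripts among the 150. None of 25 splicing, 14 ribosome biogenesis or 31 ribosomal protein transcripts were among them, although each passed the test as higher in X1. Their medians on the log2(RPKM + 1) scale were 1.78, 2.21 and 0.90, and 2 of the biogenesis transcripts had X1 means below 20 RPKM and could not be chosen. The chromosome structure list, whose proteins also serve division, had none of 9 among the 150, with a median of 2.58 and all 9 higher in X1, but 5 of the 9 lay below 20 RPKM in X1. Of the ribosomal proteins, RL11 (0.71) and RL13A (0.72) no longer passed under quantile normalization, at 0.10 and 0.15. Among 17 chromatin factors 3 were in the 150, and among 13 germ granule type transcripts, which include Piwi-like 1, 2 were, with all others higher in X1. Histones were mixed. Besides H2AZ, 8 of 11 tested, with H2A.J of the transcripts set aside among them, were higher in X1. H2A1 (SMED30015694) was higher in Xins (limma, log2 difference -1.28 ± 0.44, adjusted p = 0.017) but uneven in X1. It measured 4.05, 12.7, 22.1 and 31.4 RPKM in X1 replicates 1 to 4 and ranged from 32.7 to 38.0 RPKM in Xins. Histone H4 (SMED30025482) rose in the same order, at 15.4, 60.2, 92.9 and 195 RPKM in X1, and ranged from 30.4 to 44.8 RPKM in Xins. For H4 the groups thus overlapped (limma, log2 difference 0.81 ± 0.55, adjusted p = 0.20). Without X1 replicate 1, its lowest library, the difference was 1.47 and passed the test, and without X1 replicate 4, its highest, it was 0.28. In the transcription factor list 7 of 14 passed the test with a higher level in X1, and 4 with a higher level in Xins. GFI1 (SMED30001601) and SOX8 (SMED30008505) were the lowest of it, with log2 differences of -3.15 ± 0.15 and -1.76 ± 0.17.

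**Figure D3:**
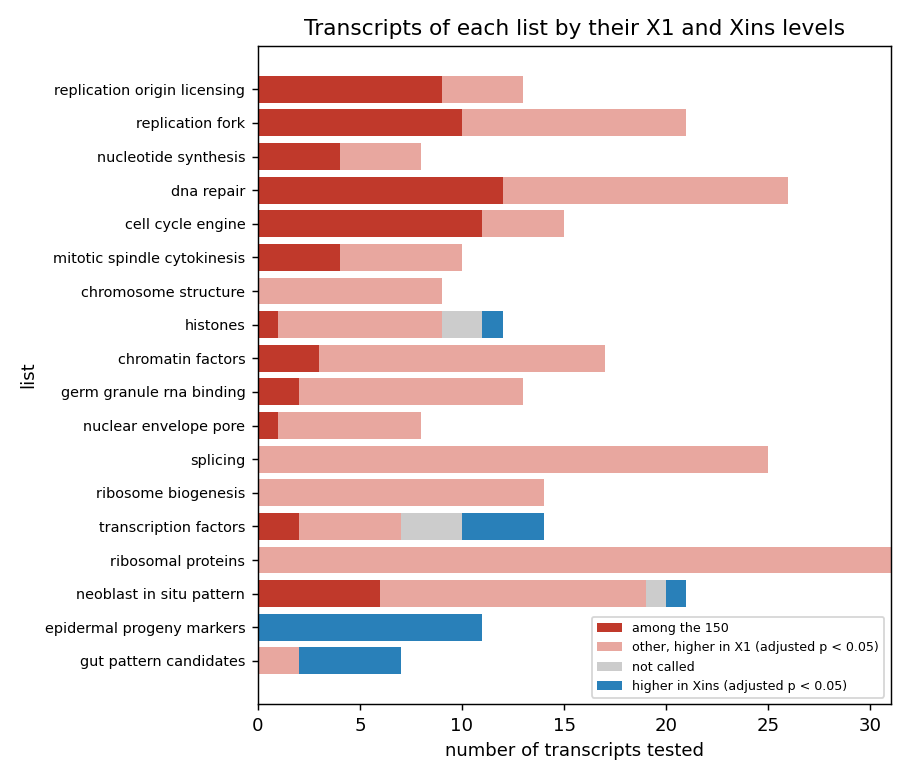
Number of tested transcripts in each list (bars), divided into those among the 150, others higher in X1, those not called and those higher in Xins by limma. Origin licensing places 9 of 13 and the cell cycle engine 11 of 15 among the 150, while splicing and ribosomal protein transcripts are higher in X1 with none among the 150.

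The 21 transcripts of the neoblast in situ pattern list were compared in the same way. Of these, 6 were among the 150, which the rule chose by this same difference. Of the other 15, 13 were higher in X1, making 19 in all. Beside these counts stand 35.5% of all 15563 tested transcripts and 74.8% of the p53-only class. The median log2 difference of all 21 was 2.94, which includes the 6 and is given as description only. The exceptions were FGFR1 (SMED30034490), with means of 54.1 RPKM (X1) and 48.9 RPKM (Xins; log2 difference 0.15 ± 0.13, adjusted p = 0.32), and SMED30029717. That transcript had no read in any X1 library and 8.93 to 12.7 RPKM in Xins, and its in situ note is of very weak discrete cells with neoblasts only as a maybe. The direction of FGFR1 turned to -0.10 when library sizes were taken from summed reads.

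The 150 were then set beside the response of whole animals to RNAi. Other animals of the same work had been sequenced after RNAi of p53, a tumour suppressor homolog, or of CHD4, a chromatin remodeller, both expressed in neoblasts, and transcripts had been listed as lowered in each. The p53 animals were followed to a later day than the CHD4 animals. Listing required a very strict limit on the adjusted p, so a transcript that was not listed may still have been lowered. Of the 150, 103 (68.7%) were listed as lowered after p53 RNAi and not after CHD4 RNAi. The same class held 300 of the 4519 other transcripts with an X1 mean of at least 20 RPKM (6.64%). None of the 150 was listed as lowered after both or after CHD4 RNAi alone, classes that held 108 (2.39%) and 146 (3.23%) of those others. The 150 made up 17.7% of the 583 transcripts of the p53-only class in the table.

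The share of the p53-only class fell along the ratio. Among transcripts with an X1 mean of at least 20 RPKM, ordered by ratio in blocks of 150, it was 68.7% in the first block, 42.0% in the second, 20% in the third and 24% in the fourth. From the sixth block to the 31st it lay between 0% and 8.67%. The last block, of 19 transcripts with ratios of at most 0.0626, held 8 (42.1%), so the class also included transcripts far lower in X1 than in Xins, in a block whose median X1 mean was 28.9 RPKM. Within the 150 the share was 58.5% of the 65 with X1 means of 20 to 50 RPKM, 67.5% of the 40 from 50 to 100 RPKM and 84.4% of the 45 above 100 RPKM. At the same levels the other transcripts had shares of 2.97%, 5.73% and 13.4%. Listing depends in part on read depth, so levels and classes are not independent.

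**Figure D4:**
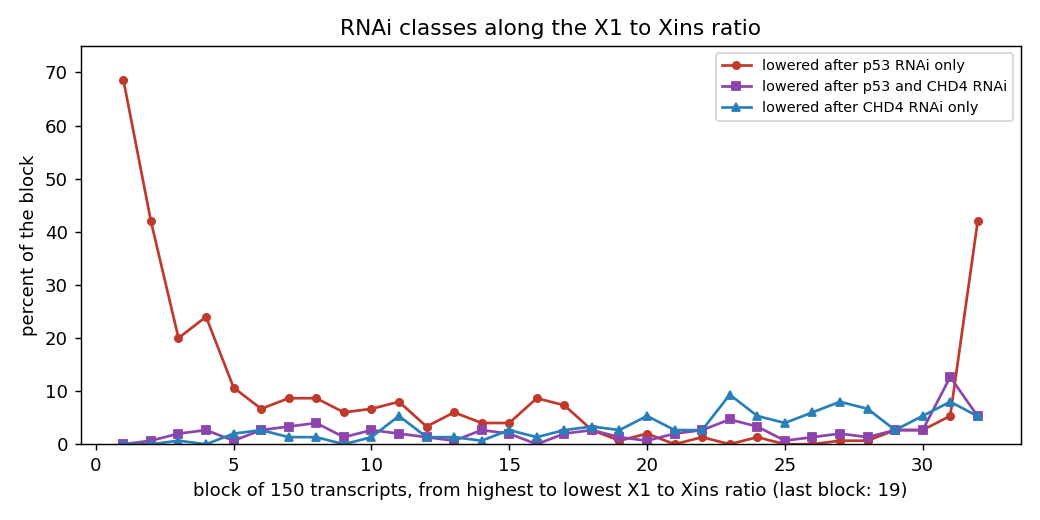
Percent of transcripts in each RNAi class (lines) in consecutive blocks of 150 transcripts with an X1 mean of at least 20 RPKM, ordered from the highest to the lowest ratio of X1 to Xins. The p53-only class makes up 68.7% of the first block, which is the 150 described here, and the other classes 0% of it.

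A few of the 150 were listed in the opposite direction. LOZEN, SMED30001134 and SMED30007916 were listed as raised after CHD4 RNAi, and DYR as raised after p53 RNAi. These 4 were 2.67% of the 150, beside 1.44% of the other transcripts with an X1 mean of at least 20 RPKM. DYR measured 94.5, 108, 84.5 and 135 RPKM in X1 and 6.70, 4.92, 7.91 and 2.87 RPKM in Xins, and so differed in listing, though not in its direction between fractions, from RIR1, RIR2, DUT and DCTD.

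Within X1 the 150 varied about as much between libraries as other transcripts did. Their coefficient of variation had a median of 12.2%, against 12.7% for the other transcripts with an X1 mean of at least 20 RPKM. SMED30021808 and SMED30022444 varied most, with coefficients of variation of 30.6% and 30.4%. SMED30022444 measured 81.9, 61.2, 58.0 and 37.5 RPKM in X1, and SMED30021808 35.0, 27.9, 20.9 and 17.6 RPKM. X1 replicate 1 was thus the highest and X1 replicate 4 the lowest library for both. Over the 150, X1 replicate 1 was the lowest X1 library for 56 (37.3%) and X1 replicate 4 the highest for 61 (40.7%), beside 51.2% and 54.1% of the other transcripts at that level. The licensing, fork and nucleotide transcripts were lower in X1 replicate 1, with median log2 deviations from their own X1 mean of -0.15, -0.13 and -0.21. The cell cycle engine (-0.12), the 17 other protein hits (-0.18) and the 43 transcripts in none of the tables (-0.09) were also lower there. Repair transcripts stood at 0.00 in that library, the 31 listed without a hit at 0.09 and the transcription factors at 0.14. The epidermal progeny markers were also uneven in X1, with *zpuf-5* at 2.89, 3.62, 17.6 and 10.6 RPKM. What part this has in the spread of the 150 was not tested.

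In Xins the low levels of the 150 were most often highest in replicate 3. The median level as a percent of the X1 mean was 2.40% in Xins replicate 1, 2.86% in replicate 2, 4.996% in replicate 3 and 3.03% in replicate 4. Replicate 3 was the highest Xins library for 110 of the 150 (73.3%), and replicate 1 the lowest for 85 (56.7%), beside 48.2% and 27.6% of the other transcripts with an X1 mean of at least 20 RPKM. Neoblast markers left out by the rule were likewise highest there, with Piwi-like 1 at 1.82%, 1.89%, 4.13% and 2.27% and PCNA at 1.81%, 2.76%, 5.32% and 2.13%. Xins replicate 3 therefore held the most of both, and a larger share of X1 type cells in that library was not tested. SMED30030213, at 7.92%, and DCTD, at 7.72%, kept the most in Xins of the 150. Only SMED30029264 and SMED30021376 had no read in an Xins library, in each case replicate 4, where a count of 0 allows up to 3 reads. The Xins values rested on 21 to 8400 reads per transcript summed over the 4 libraries, with a median of 156.5. Their coefficient of variation in Xins had a median of 42.2%, against 16.8% for the other transcripts with an X1 mean of at least 20 RPKM. Among members with many reads it varied, at 34.2% for TBA2 (8400 reads) and 52.8% for TDX2 (1506 reads). For RIR1 (3719 reads) and DDX4 (3347 reads) it was 14.2% and 17.2%. What part the number of reads has in this spread was not tested.

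**Figure D5:**
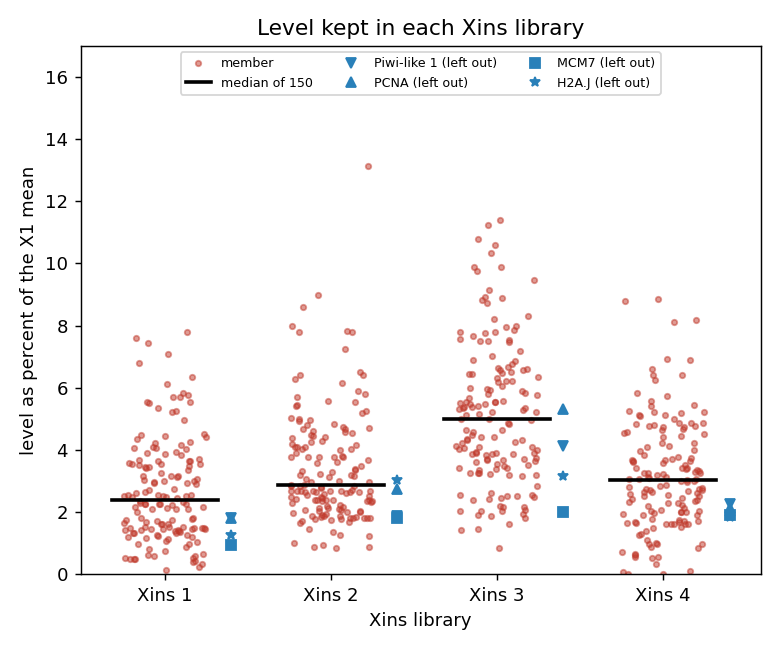
Level of each of the 150 transcripts in each Xins library as a percent of its X1 mean (red points, black bar for the median), with the 4 neoblast markers left out by the rule (blue). Medians run from 2.40% in replicate 1 to 4.996% in replicate 3, and each of the 4 markers is highest in replicate 3.

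The rule did not use transcript length. The 150 had a median length of 1318 nucleotides as recovered from the deposited values, against 1199 for the other transcripts with an X1 mean of at least 20 RPKM, with broadly overlapping middle ranges of 918.5 to 1860.2 and 769 to 1758. Their median X1 mean, a quantity that enters the ratio, was 60.2 RPKM and close to the 52.8 RPKM of the others, and 45 of the 150 exceeded 100 RPKM. The 43 transcripts in none of the RNAi tables had a median of 901 nucleotides, and the 9 licensing transcripts one of 2437 nucleotides.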

How the data were processed

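Polyadenylated RNA of 4 X1 and 4 Xins libraries was analysed from a table of 17882 transcripts deposited as RPKM by the authors. Per the labels, CASAVA 1.8.2, Bowtie and edgeR were used, while the sources used here do not give the transcript set or alignment settings for sorted cells. RPKM values were whole multiples of 1 read (tolerance 0.001 read) for all 17882 transcripts, which gave reads, lengths and library sizes. The sizes inside the RPKM matched TMM-scaled totals. A limma model (version 3.58.1, R 4.3.3) with a mean trend was applied to log2(RPKM + 1) of the 15563 transcripts with a mean of at least 1 RPKM, which left out 2319. P-values are two-sided and Benjamini-Hochberg adjusted. Fold changes on this scale understate those of low transcripts. The fit was tested on simulated data. Members, functional lists and classes were chosen with earlier results of these data known. Named transcripts were those with the highest ratio, the highest X1 mean, the leading members and the lowest other transcripts of each list, those beside the limit, those with in situ patterns, and those with the most variation or the most left in Xins. Other transcripts are given as parts of a list, and 1 transcript with a protein hit is counted but not reported here. Alternatives are given in the closing section.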

Additional observations from a re-analysis of the deposited data

Results flagged for a closer look

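In each group of 4 libraries of the named transcripts, the highest or lowest library was compared with the others by Dixon's ratio. Of 172 groups, 10 held a library far from the other 3, and chance alone flags about 1 in 20 groups. Among the 150, MCM3 stood out high in X1 replicate 3 (163 RPKM, others 118 to 125), TIPIN high in X1 replicate 4 (89.6 RPKM, others 58.4 to 63.0) and DCTD low in X1 replicate 1 (112 RPKM, others 132 to 135). MCM2 stood out low in Xins replicate 1 (0.538 RPKM, others 2.12 to 2.35). ESPL1 (4.40 RPKM, others 2.13 to 2.49) and SOX13 (8.87 RPKM, others 4.56 to 5.21) stood out high in Xins replicate 3, the library in which most of the 150 were highest. Outside the 150 the transcripts were CIZ1, high in X1 replicate 1 at 73.2 RPKM, NU188, high in X1 replicate 3 at 19.1 RPKM, SOX8, low in X1 replicate 2 at 42.7 RPKM, and TONSL, high in Xins replicate 4 at 1.06 RPKM.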

How the results depend on the processing

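The analysis was repeated with 16 alternative fits and 15 alternative forms of the rule. The median log2 difference of the 150 was 4.89 with a pseudocount of 0.1 and 3.14 with a pseudocount of 5, and 4.10 to 4.36 when libraries were left out in turn. Quantile normalization moved the median of all transcripts by 0.37 and the share of calls that were higher in X1 from 45.9% to 57.2%. Sizes from summed reads moved that median by -0.23 and the share to 39.0%. Relative to the median of all transcripts the 150 stood at 4.28, 4.19 under quantile normalization and 4.31 with summed reads. That relative value was 5.02 with a pseudocount of 0.1, 3.21 with a pseudocount of 5 and 5.11 in a limma-voom fit of the recovered reads. The count of transcripts that differed was 12011, and 11483 to 11854 when libraries were left out. The gut-pattern list had 2 transcripts higher in X1, 1 with sizes from summed reads and 1 to 2 when libraries were left out (1 without Xins replicate 1), and 5 higher in Xins, 2 with a mean of at least 5 RPKM. An X1 minimum of 50 RPKM kept 85 of the 150. The first 300 by ratio held 166 of the p53-only class (55.3%), and 1 transcript lowered after both, as did a ratio pseudocount of 5 and an X1 minimum of 50 RPKM. Histone H4 passed the test at 1.47 without X1 replicate 1. FGFR1 reversed to -0.10 with summed reads. The deviations of same-numbered X1 and Xins libraries had correlations from -0.19 to 0.27. Such values cannot tell whether the numbers pair samples, which the labels do not say. With a replicate block 11911 transcripts differed, and the median of the 150 was 4.16. Xins levels below 1 RPKM rest on few reads, which limits the folds of the 35 transcripts with such means.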
